A study of Mus musculus with 6 samples.

Results

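The genes described here are 47 histone modifiers and chromatin remodellers, chosen by name as the rows of the deposited expression table that carry these symbols. The choice was made with earlier results of these data known. All 47 were found among the 16383 genes listed, and all 47 passed the filter on low values that left 6761 genes for testing. They comprise 8 acetyltransferases and acetyltransferase coactivators, 7 bromodomain proteins, 6 genes of lysine methyltransferases and their subunits, 12 lysine demethylases, 9 remodelling ATPases and 5 corepressor subunits. The table ends in the alphabet at Pcsk5, so chromatin genes with later names, such as those of the Setd and Smarc families, are not analysed here.

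Chromatin regulators set how open a gene is. Acetyltransferases such as Crebbp and Ep300 acetylate histone tails at enhancers and promoters, bromodomain proteins bind these acetyl groups, and corepressor complexes such as NuRD and NCoR bring deacetylases that remove them. Methyltransferases and demethylases add and remove methyl groups on histone lysines, some of which mark active and others silent genes, and ATPases of the Chd and Ino80 families slide, eject or exchange nucleosomes. In thymocytes these enzymes work with lineage transcription factors while the Cd4 and Cd8 programmes are fixed. Tcf1 and Lef1 are HMG-box transcription factors of the T lineage.

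The libraries hold RNA of mature CD8 thymocytes, the last stage of CD8 T cells in the thymus, which were sorted from mice by surface stain as CD8+ and TCRβ high without CD69 or CD24. Of the 6 libraries, 2 came from Tcf1-/-Lef1-/- mice (DKO), 2 from Tcf1-/- mice (Tcf1 KO) and 2 from wild-type mice (WT). The design text names CD4-Cre, a recombinase expressed from the double-positive stage of thymocytes, as the means of deletion, and the labels do not say which alleles it acted on. Age, strain and pooling are not given there, nor whether the 2 libraries of a genotype are of separate mice, so the tests rest on the spread between these libraries, which may be technical. Values are FPKM, fragments scaled by transcript length and library total, given below as replicate 1 and replicate 2 of each genotype. Each log2 change refers to log2(FPKM + 1) and stands with its standard error (SE). All come from 1 limma fit to the 6 libraries, with p-values adjusted by Benjamini-Hochberg across the 6761 genes, and a gene passed when its adjusted p was under 0.05.

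The targeted gene Lef1 was at 131 and 130.2 FPKM in DKO, 309 and 312 FPKM in Tcf1 KO and 316 and 282 FPKM in WT (DKO against WT -1.19 ± 0.06, adjusted p = 0.000157), and Tcf7, which encodes Tcf1, is not analysed here. The T cell receptor subunit gene Cd3e was at 750.0 and 795 FPKM in DKO, 675 and 716 FPKM in Tcf1 KO and 584 and 627 FPKM in WT. The co-receptor gene Cd8a was at 516 and 535 FPKM in DKO, 646 and 656 FPKM in Tcf1 KO and 561 and 599.9 FPKM in WT. Both T cell genes were thus high in every library. In DKO against WT, Cd3e (0.35) and Cd3g (0.50) rose, Cd3d (-0.19) and Cd5 (-0.50) fell, and Cd8a, Cd8b1, Cd2 and Lck did not pass. Summed marker levels of other cells were 23.5 to 26.9 FPKM in DKO, 15.7 to 17.6 FPKM in Tcf1 KO and 20.4 to 21.1 FPKM in WT for B cells (1 of 8 genes higher in DKO against WT, none lower), with Pax5 at 0. For myeloid cells they were 68.9 to 70.7 FPKM in DKO, 45.7 to 47.5 FPKM in Tcf1 KO and 45.8 to 48.1 FPKM in WT (1 of 9 higher, 1 lower), with Cd14 at 0. For thymic stroma they were 3.75 to 4.4 FPKM in DKO, 2.11 to 2.66 FPKM in Tcf1 KO and 2.05 to 2.26 FPKM in WT (2 of 7 higher), with Col3a1 at 0, and for erythroid cells 16.9 to 18.5 FPKM in DKO, 6.06 to 6.08 FPKM in Tcf1 KO and 10.4 to 10.5 FPKM in WT (1 of 9 higher), with Car1 at 0. Only 2 of the B cell, 3 of the myeloid, 2 of the stroma and 1 of the erythroid genes passed the filter on low values. The others were not tested for a difference. The B cell sum is mostly Cd79b, the myeloid sum mostly Ms4a6c and the erythroid sum mostly Car2, and their part in the results was not tested. Of 7 genes of immature thymocytes, Arpp21 (1.77), Aqp11 (1.77), Ccr9 (1.11) and Cd1d1 (0.56) were higher and Mns1 (-0.94) lower in DKO against WT. The sum of the 7 was 849 to 853 FPKM in DKO, 905 to 921 FPKM in Tcf1 KO and 732 to 763 FPKM in WT. It is mostly Cd8a, which is also a gene of mature CD8 cells, and Ccr9, so it does not measure immature cells alone. In Tcf1 KO against WT, Dntt (1.52), Arpp21 (1.47), Aqp11 (0.78) and Ccr9 (0.64) were higher. Of Cd69 and Cd24a, whose proteins the sort selected against, Cd69 fell in DKO against WT (-0.46). Cd24a, at 5.76 and 2.79 FPKM in DKO and 3.23 and 2.61 FPKM in WT, did not pass (0.37, limma adjusted p = 0.352). The part of these maturation genes in the results was not tested either. Cd4 was at 129 and 63.7 FPKM in DKO, 15.1 and 6.27 FPKM in Tcf1 KO and 1.41 and 0.65 FPKM in WT. The libraries of every genotype thus differed from each other in this gene by more than 1.5 times, with replicate 1 the higher in each genotype. Within a genotype the 47 chromatin genes differed between the libraries by a median of 0.07 (DKO), 0.04 (Tcf1 KO) and 0.06 (WT) on the log2 scale, and the widest gap in DKO was that of Chd3, at 0.42.

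FPKM is scaled by transcript length, so levels can be ordered between genes. In DKO the most abundant of the 47 was Brd2, a reader of acetylated histones, with 144 and 151 FPKM. Chd4 followed with 126 and 126 FPKM, with no overlap between the libraries of these genes. In WT the leading gene was Chd4, the ATPase of the NuRD complex, at 153 and 154 FPKM, and its libraries lay above those of every other member. Mbd2 (124 and 109.9 FPKM), Chd3 (105 and 120.2 FPKM), Mta2 (113 and 109.7 FPKM) and Brd2 (111 and 110.1 FPKM) followed with overlapping ranges, so their order within this group is not resolved. All of these but Brd2 encode NuRD subunits. The least abundant in both genotypes was the coactivator Ncoa1, at 8.14 and 7.96 FPKM in DKO and 7.26 and 7.39 FPKM in WT. The lead of Brd2 over Chd4 in DKO was thus the reverse of their order in WT.

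**Figure D1:**
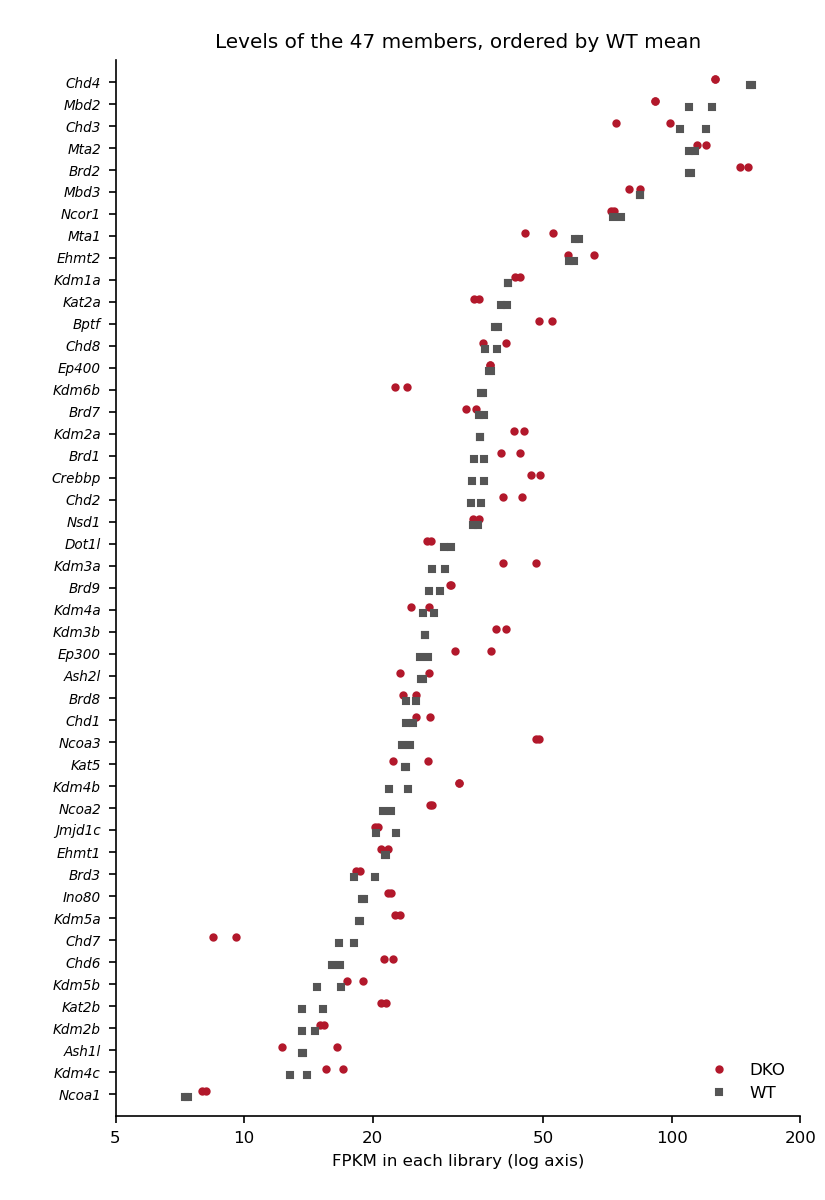
FPKM of each of the 47 genes in the 2 DKO libraries (red circles) and the 2 WT libraries (grey squares) on a log axis, ordered by the WT mean. Chd4 stands at the top in WT at 153 and 154 FPKM, and Ncoa3, Kdm3a, Kdm3b (to the right) and Chd7, Kdm6b (to the left) show the widest separation of the genotypes.

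The first comparison asks how the chromatin genes differ in mature CD8 thymocytes labelled as deficient for both factors, in which Lef1 transcript was lower but still present, and the loss of Tcf1 could not be checked here. In DKO against WT, 23 of the 47 passed the test, of which 17 were higher and 6 lower. The rises were led by the coactivator Ncoa3, at 0.99 ± 0.06 on the log2 scale, and the falls by the remodelling ATPase Chd7, at -0.88 ± 0.08; no member changed by 1 or more on this scale. The rises lay in 5 acetyltransferase or coactivator genes, 3 bromodomain genes, 6 demethylases and 3 remodelling ATPases. Over all tested genes 49.5% passed, 21.7% higher and 27.8% lower, so the 48.9% of members that passed was near the background. By direction, 36.2% of the members were higher and 12.8% lower. Among the 4439 tested genes with a WT mean at or above that of the least abundant member, 21.9% were higher and 31.4% lower. DKO libraries lay wholly above WT in 24 members and wholly below in 10, against 36.0% and 41.4% of all tested genes. The Tcf1 KO libraries lay wholly between DKO and WT in 17 of the 17 higher members and 3 of the 6 lower ones. Over all tested genes this held for 56% of those called higher and 61.6% of those called lower. Fewer cells with a transcript and less transcript per cell cannot be told apart in bulk libraries. The median log2 change of the 47 was 0.07, against -0.03 over all tested genes, and the median size of change irrespective of sign was 0.20, against 0.27. With median scaling of the libraries, which moved the calls of all genes to 1781 higher and 1617 lower, against 1465 and 1880 without it, 17 members were higher and 5 lower.

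**Figure D2:**
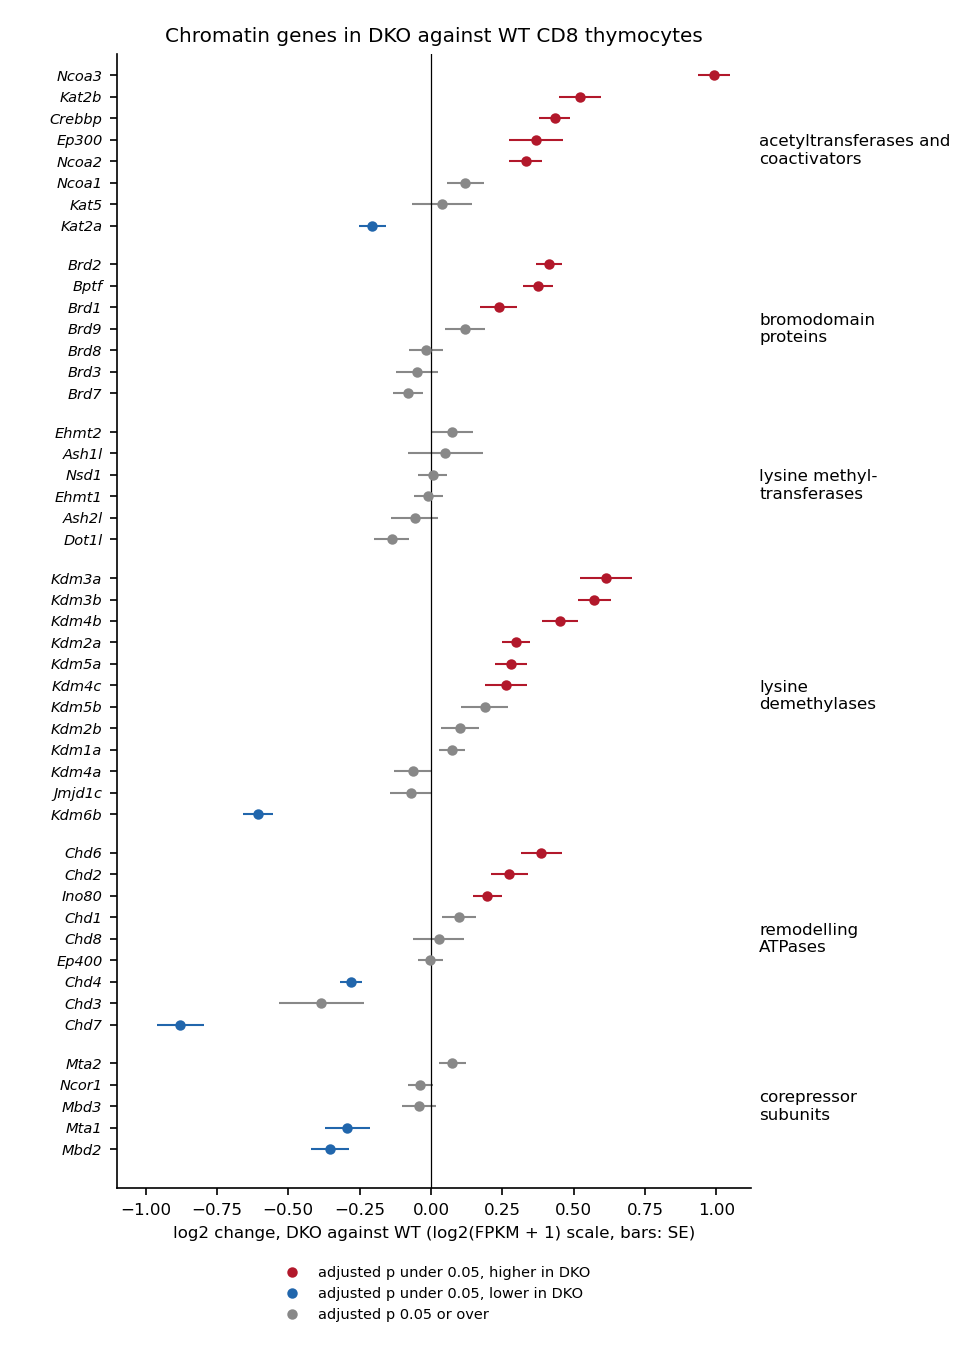
Log2 change of each gene in DKO against WT with its SE (bars), from limma on log2(FPKM + 1) with 2 libraries per genotype, grouped by role and ordered by size. Red and blue points passed adjusted p 0.05 and grey points did not; Ncoa3 at 0.99 and Chd7 at -0.88 mark the ends, and the 6 methyltransferase genes all lie between -0.14 and 0.07.

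Promoter windows from RefSeq (GRCm38.p6, a later build than the mm9 of the deposited values) were matched by symbol for 31 of the 47 genes, among them 10 of the 17 that were higher and 3 of the 6 that were lower in DKO against WT. Ncoa3, Kdm3b, Kdm6b and Chd7, which are among the members with the largest changes, had no window, so the search does not cover them. The search took 2 forms of the Tcf and Lef core motif, CTTTGAT and CTTTGAA, on both strands. Neither occurred in any window of these 31 genes, in the 300 bases from 250 before to 50 after the annotated start. Of the 4908 tested genes with a window 6.81% held a match, and of all 27025 genes with one 9.88% did. Other forms such as CTTTGTT were not searched, and the Kat2b window printed below holds AACAAAG, the reverse complement of CTTTGTT. The 4 windows of 250 bases before the start printed here were picked because they belong to genes that passed in DKO against WT and differ in base composition, with CpG dinucleotides in capitals. Crebbp, Kdm3a and Kat2b rose and Chd4 fell. The Crebbp and Kdm3a windows, on the minus strand, hold 44 and 31 CpG. Those of Chd4 and Kat2b, on the plus strand, hold 23 and 6. Of these 4 genes 3 have further windows, with 0 and 20 CpG for Kdm3a, 12 for Chd4 and 5 for Kat2b, so the richest window of each is printed.
Crebbp, chr16:4213405-4213654: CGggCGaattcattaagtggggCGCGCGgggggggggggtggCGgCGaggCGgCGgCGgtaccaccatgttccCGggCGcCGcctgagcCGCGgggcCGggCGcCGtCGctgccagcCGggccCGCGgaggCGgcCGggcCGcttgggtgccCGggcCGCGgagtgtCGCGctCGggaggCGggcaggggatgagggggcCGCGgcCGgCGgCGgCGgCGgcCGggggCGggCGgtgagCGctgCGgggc
Kdm3a, chr6:71632687-71632936: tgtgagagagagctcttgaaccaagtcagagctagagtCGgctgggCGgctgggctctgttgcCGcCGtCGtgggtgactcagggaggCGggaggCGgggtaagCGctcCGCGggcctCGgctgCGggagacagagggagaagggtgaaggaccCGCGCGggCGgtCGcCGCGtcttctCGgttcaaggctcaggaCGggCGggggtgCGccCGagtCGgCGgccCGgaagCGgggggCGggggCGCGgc
Kat2b, chr17:53566721-53566970: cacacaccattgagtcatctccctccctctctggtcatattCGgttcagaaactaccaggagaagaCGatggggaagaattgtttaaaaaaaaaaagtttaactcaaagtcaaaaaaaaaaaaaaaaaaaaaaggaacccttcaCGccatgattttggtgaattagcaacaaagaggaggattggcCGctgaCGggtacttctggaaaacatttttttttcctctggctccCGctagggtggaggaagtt
Chd4, chr6:125095913-125096162: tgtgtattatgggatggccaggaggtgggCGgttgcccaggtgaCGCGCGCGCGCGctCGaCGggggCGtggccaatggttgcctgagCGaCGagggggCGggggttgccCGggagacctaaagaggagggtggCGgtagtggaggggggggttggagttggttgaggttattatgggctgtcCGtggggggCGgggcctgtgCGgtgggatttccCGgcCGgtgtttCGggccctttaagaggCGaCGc
With the window richest in CpG taken for each gene, the median number of CpG in the 250 bases was 26 over the 31 members. It was 17 over the tested genes with a window. The letters searched are a description of these windows only, and enhancers are not covered.

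Among the acetyltransferases and their coactivators, 5 of 8 rose in DKO and 1 fell. Ncoa3, a coactivator of nuclear receptors of the p160 family that recruits Crebbp and Ep300, was at 48.9 and 48.2 FPKM in DKO, 31.7 and 29.5 FPKM in Tcf1 KO and 23.4 and 24.4 FPKM in WT. Both DKO libraries lay far above the others and the Tcf1 KO libraries stood between them and WT; the mean was 103% higher in DKO than in WT (log2 change 0.99 ± 0.06, limma adjusted p = 0.000181). Its relative Ncoa2 was at 27.5 and 27.3 FPKM in DKO, 22.3 and 23.9 FPKM in Tcf1 KO and 21.1 and 22.1 FPKM in WT, a smaller rise in DKO (0.33 ± 0.06, adjusted p = 0.00563). The third family member, Ncoa1, differed from WT by 0.12 ± 0.06 and did not pass (adjusted p = 0.173).

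Kat2b, or PCAF, an acetyltransferase that occupies the same catalytic place in the SAGA and ATAC complexes as Kat2a, was at 20.9 and 21.5 FPKM in DKO, 19.6 and 18.5 FPKM in Tcf1 KO and 15.3 and 13.7 FPKM in WT. The genotypes did not overlap, and the rise in DKO was 0.52 ± 0.07 (adjusted p = 0.0025). Kat2a fell in DKO, with a log2 change of -0.21. The ratio of Kat2b to Kat2a FPKM was 0.589 and 0.623 in DKO, 0.5 and 0.485 in Tcf1 KO and 0.372 and 0.342 in WT, so that Kat2a was the more abundant of the pair in every library. Crebbp, the acetyltransferase CBP, was at 49.2 and 46.9 FPKM in DKO, 39.7 and 39.8 FPKM in Tcf1 KO and 36.5 and 34.2 FPKM in WT, a rise in DKO of 0.43 ± 0.05 (adjusted p = 0.00172). Its paralogue Ep300 rose by 0.37, with the DKO libraries apart at 37.8 and 31.2 FPKM. Kat5, the catalytic subunit of the TIP60 complex, differed by 0.04 ± 0.11 and did not pass (adjusted p = 0.79).

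**Figure D3:**
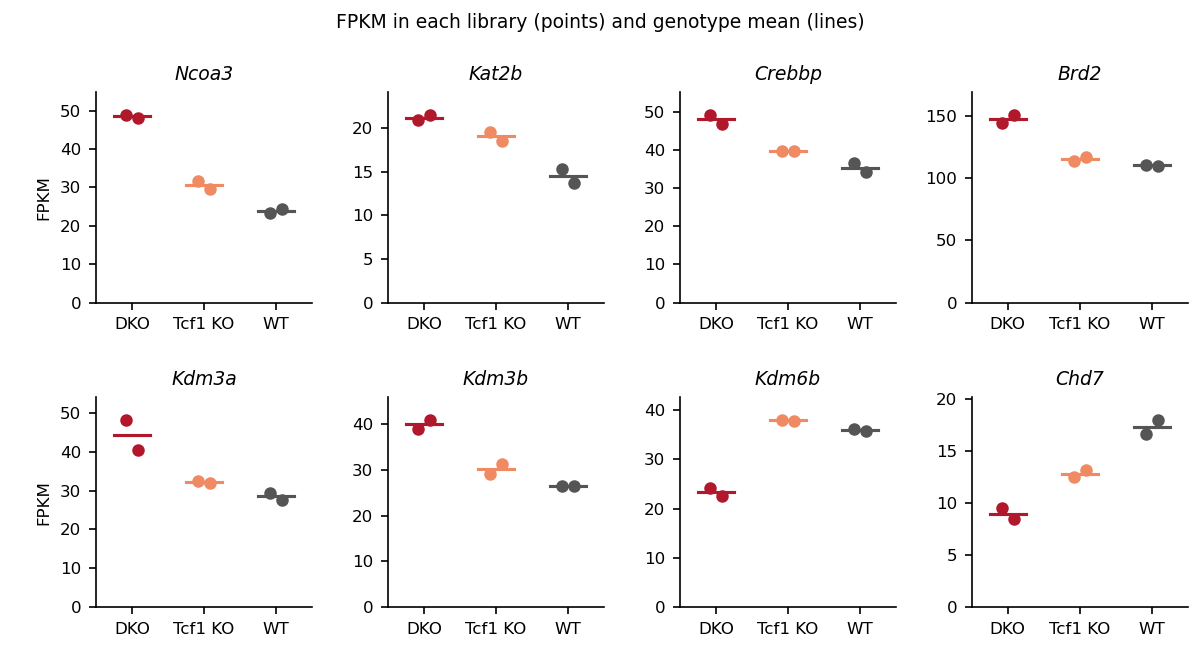
FPKM of 8 members in each library (points) with the mean of each genotype (lines), on axes that start at 0. Ncoa3, Kat2b, Crebbp, Brd2, Kdm3a and Kdm3b are highest and Chd7 is lowest in DKO, each with Tcf1 KO in between. Kdm6b is low in DKO alone, at 24.1 and 22.5 FPKM.

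Bromodomain genes gave 3 rises and no fall among 7. Brd2, a BET protein that binds acetylated histones at active genes, was at 144 and 151 FPKM in DKO, 114 and 117 FPKM in Tcf1 KO and 111 and 110.1 FPKM in WT. DKO libraries were 33.5% above WT on average (0.41 ± 0.04, adjusted p = 0.00106). The Tcf1 KO libraries differed from WT by 0.06 ± 0.04, which did not pass. Bptf, the largest subunit of the remodelling complex NURF, was at 52.6 and 49 FPKM in DKO, 40.7 and 40.7 FPKM in Tcf1 KO and 38.6 and 39.1 FPKM in WT. This was a rise in DKO of 0.38 ± 0.05 (adjusted p = 0.00242). Brd1, a scaffold of acetyltransferase complexes, rose by 0.24. Brd3, Brd7, Brd8 and Brd9, a BET protein and subunits of the PBAF, TIP60 and non-canonical BAF complexes in that order, had log2 changes from -0.08 to 0.12 and did not pass.

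None of the 6 genes of lysine methyltransferases and their subunits passed in DKO against WT, by limma at an adjusted p under 0.05 or at an unadjusted p under 0.05. Ehmt2, or G9a, which methylates histone H3 in silent chromatin, was the most abundant of them. It was at 57.3 and 65.8 FPKM in DKO, 58.2 and 56.8 FPKM in Tcf1 KO and 59.1 and 57.5 FPKM in WT, with overlapping ranges (0.07 ± 0.07, adjusted p = 0.439). The other 5 had log2 changes of -0.01 ± 0.05 for Ehmt1, the partner of Ehmt2, 0.01 ± 0.05 for Nsd1, an enzyme of the methyl mark of transcribed genes, -0.06 ± 0.08 for the COMPASS subunit Ash2l and -0.14 ± 0.06 for Dot1l, which methylates the globular core of histone H3. Ash1l, an enzyme of the same mark as Nsd1, at 0.05 ± 0.13, had DKO libraries on both sides of WT, at 16.5 and 12.2 FPKM in DKO and 13.7 and 13.7 FPKM in WT. Its difference was 0.25 (adjusted p = 0.0355) without DKO replicate 2 and -0.15 (adjusted p = 0.134) without DKO replicate 1.

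The lysine demethylases held 6 rises and 1 fall among 12. Kdm3a, which removes methyl groups from the H3 lysine of silent chromatin and responds to hypoxia in other cells, was at 48.2 and 40.3 FPKM in DKO, 32.4 and 32 FPKM in Tcf1 KO and 29.4 and 27.6 FPKM in WT. The DKO libraries differed from each other but both exceeded all others (0.61 ± 0.09, adjusted p = 0.00318). Kdm3b, of the same subfamily, was at 38.8 and 40.9 FPKM in DKO, 29.1 and 31.3 FPKM in Tcf1 KO and 26.4 and 26.5 FPKM in WT, with both DKO libraries above all others and a rise in DKO of 0.57 ± 0.06 (adjusted p = 0.000821). Jmjd1c, the third of the subfamily, differed by -0.07 ± 0.07 and did not pass (adjusted p = 0.458).

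Of the Kdm4 genes, whose products act on trimethylated H3 lysines, Kdm4b was at 31.8 and 31.8 FPKM in DKO, 26 and 25.8 FPKM in Tcf1 KO and 24.1 and 21.8 FPKM in WT, a rise in DKO of 0.45 ± 0.06 (adjusted p = 0.00232). Kdm4c rose by 0.26, and Kdm4a, at -0.06 ± 0.07, did not pass. Kdm2a, which binds unmethylated CpG islands, was at 42.8 and 45.2 FPKM in DKO, 36.3 and 37.2 FPKM in Tcf1 KO and 35.5 and 35.6 FPKM in WT, a rise in DKO of 0.30 ± 0.05 (adjusted p = 0.00483). Kdm5a, which removes the methyl mark of active promoters, was at 22.6 and 23.1 FPKM in DKO, 19.1 and 20.3 FPKM in Tcf1 KO and 18.6 and 18.7 FPKM in WT and rose by 0.28 ± 0.06 (adjusted p = 0.009). Their relatives Kdm2b (0.10 ± 0.07) and Kdm5b (0.19 ± 0.08) and the amine oxidase Kdm1a, or LSD1 (0.07 ± 0.05), did not pass.

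Kdm6b, or JMJD3, which removes the methyl mark placed by Polycomb, was the demethylase that fell. It was at 24.1 and 22.5 FPKM in DKO, 38 and 37.8 FPKM in Tcf1 KO and 36.2 and 35.7 FPKM in WT. The 4 libraries of Tcf1 KO and WT lay within 3 FPKM of each other, and both DKO libraries were far below them. The DKO mean fell by 35.3% relative to WT (-0.61 ± 0.05, adjusted p = 0.000503). Kdm6a, the other enzyme for this mark and not one of the 47, was at 28 and 27.8 FPKM in DKO, 23.7 and 23.1 FPKM in Tcf1 KO and 23.4 and 22.5 FPKM in WT, a rise in DKO of 0.27 ± 0.05 (adjusted p = 0.00751). The ratio of Kdm6a to Kdm6b FPKM was 1.16 and 1.23 in DKO, 0.624 and 0.61 in Tcf1 KO and 0.647 and 0.63 in WT, so the order of the pair in DKO was the reverse of that in the other genotypes.

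Of the 9 remodelling ATPases, 3 rose and 2 fell. Chd7, which acts at enhancers and is mutated in human CHARGE syndrome, was at 9.57 and 8.46 FPKM in DKO, 12.5 and 13.2 FPKM in Tcf1 KO and 16.7 and 18.1 FPKM in WT. Its libraries fell into 3 separate levels, and the DKO mean fell by 48.1% relative to WT (-0.88 ± 0.08, adjusted p = 0.000654). Chd6, of the same subfamily, rose by 0.39, and Chd8, the third, was at 36.1 and 41 FPKM in DKO and 36.5 and 39.1 FPKM in WT (0.03 ± 0.09, adjusted p = 0.827). The ratio of Chd6 to Chd7 FPKM was 2.22 and 2.64 in DKO, 1.44 and 1.51 in Tcf1 KO and 1 and 0.888 in WT. Chd2, a remodeller of transcribed genes, rose by 0.27. Ino80, the ATPase of the INO80 complex, was at 21.6 and 22.1 FPKM in DKO, 19.4 and 19.4 FPKM in Tcf1 KO and 18.8 and 19.1 FPKM in WT and rose by 0.20 ± 0.05 (adjusted p = 0.0212). Chd1 (0.10 ± 0.06) and Ep400 (-0.00 ± 0.04) did not pass.

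NuRD genes lie in both the remodeller and the corepressor groups. The ATPase Chd4, also called Mi-2β and known to act at the Cd4 gene in thymocytes, fell by 0.28 on the log2 scale, with 126 and 126 FPKM in DKO, 136 and 137 FPKM in Tcf1 KO and 153 and 154 FPKM in WT. Its alternative Chd3 was at 74 and 99.2 FPKM in DKO, 116 and 105 FPKM in Tcf1 KO and 105 and 120.2 FPKM in WT. That difference did not pass (-0.38 ± 0.15, adjusted p = 0.0795); it was -0.59 (adjusted p = 0.0112) without DKO replicate 2 and -0.17 (adjusted p = 0.24) without DKO replicate 1. Mbd2, which binds methylated DNA, was at 91.5 and 91.2 FPKM in DKO, 112 and 115 FPKM in Tcf1 KO and 124 and 109.9 FPKM in WT, and fell in DKO (log2 change -0.35 ± 0.07, adjusted p = 0.00739). Mta1, a scaffold that binds deacetylases, was at 45.3 and 52.7 FPKM in DKO, 58.3 and 60.5 FPKM in Tcf1 KO and 59.4 and 60.7 FPKM in WT. It was lower in DKO (log2 change -0.29 ± 0.08, adjusted p = 0.0248). Mbd3 (-0.04 ± 0.06), the alternative of Mbd2, and Mta2 (0.07 ± 0.05), the alternative of Mta1, did not pass. Ncor1, the scaffold of the NCoR corepressor, had 72 and 73.2 FPKM in DKO, 74.2 and 73.8 FPKM in Tcf1 KO and 73 and 76.2 FPKM in WT and did not pass either (-0.04 ± 0.04, adjusted p = 0.517).

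Of these 23 calls, 14 passed whichever of the 6 libraries was left out. The calls of Ep300, Kat2a, Brd1, Kdm4c, Kdm5a, Chd2, Ino80 and Mta1 ended without WT replicate 1 (limma adjusted p from 0.053 to 0.162). The same 8 and Chd6 ended without WT replicate 2 (0.0544 to 0.15). Brd1 and Kdm4c also ended without either Tcf1 KO library (0.0525 to 0.0543), and with Chd2 without DKO replicate 1 (0.0528 to 0.104), and Ino80 ended without DKO replicate 2 (0.0609). When no filter on low values was used, the calls of Ep300, Brd1, Kdm4c, Chd2, Mbd2 and Mta1 ended (0.053 to 0.124).

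The second comparison concerns the libraries labelled as deficient for Tcf1 alone. No chromatin gene of the 47 passed in Tcf1 KO against WT, where limma called 2.09% of all tested genes; 9 members, or 19.1%, had an unadjusted p under 0.05, against 21.1% of all tested genes. Over all genes the calls were 1.33% higher and 0.754% lower. Of the 9 members, the 7 that were higher in Tcf1 KO were Crebbp, Kat2b, Ncoa3, Kdm3b, Kdm4b, Kdm5b and Chd6, and the 2 lower ones were Chd4 and Chd7. Tcf1 KO libraries lay wholly above WT in 23 members and wholly below in 9, against 25.8% and 30.0% of all tested genes. The nearest to the threshold was Ncoa3 (0.34 ± 0.06, adjusted p = 0.0529), which passed when genes under 5 FPKM were left out (adjusted p = 0.0488) and had an adjusted p from 0.0541 to 0.293 under the other alternatives. Kat2b followed with 0.38 ± 0.07 (adjusted p = 0.0666) and Chd7 with -0.41 ± 0.08 (adjusted p = 0.0719). The 47 log2 changes ran from -0.41 to 0.38, with a median of 0.03, against -0.01 over all tested genes.

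**Figure D4:**
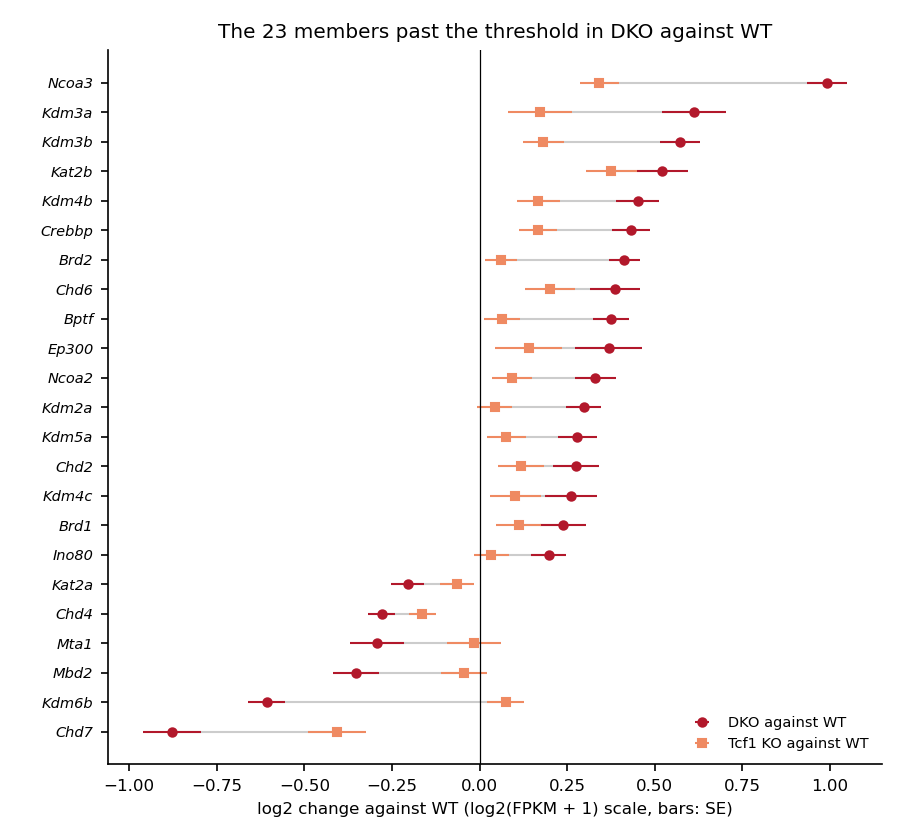
Log2 changes with SE (bars) of the 23 members that passed in DKO against WT, shown for DKO against WT (red circles) and Tcf1 KO against WT (orange squares); both comparisons use the same 2 WT libraries. Ncoa3 is at 0.99 and 0.34 and Chd7 at -0.88 and -0.41 in the 2 comparisons, while Kdm6b is at -0.61 and 0.07.

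Setting the 2 deficient genotypes side by side concerns the added deficiency of Lef1; this comparison shares the DKO libraries with the first and the Tcf1 KO libraries with the second. In DKO against Tcf1 KO, 11 members were higher and 4 lower, 31.9% in all, against 38.4% of all tested genes (15.9% higher and 22.6% lower). DKO libraries lay wholly above those of Tcf1 KO in 22 members and wholly below in 12, against 31.2% and 37.9% of all tested genes. With median scaling 15 members were higher and 4 lower, and all genes divided into 1312 higher and 1271 lower, against 1072 and 1527 without it. Ncoa3 differed by 0.65 ± 0.06 (adjusted p = 0.000986) and Kdm6b by -0.68 ± 0.05 (adjusted p = 0.000724), the largest difference in each direction. Chd7 was lower by 0.47 on the log2 scale. The other rises were in Kdm3a (0.44), Kdm3b (0.39), Brd2 (0.35), Bptf (0.31), Kdm4b (0.28), Crebbp (0.27), Kdm2a (0.25), Ncoa2 (0.24), Kdm5a (0.20) and Ino80 (0.16), and the other falls in Mbd2 (-0.31) and Mta1 (-0.28). Kat2b, which stood at 0.38 in Tcf1 KO against WT, differed by 0.15 ± 0.07 here and did not pass (adjusted p = 0.168).

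Of these 15 calls, 6 passed whichever library was left out. They were those of Ncoa3, Brd2, Bptf, Kdm3b, Kdm6b and Chd7. Without Tcf1 KO replicate 1, 9 calls ended, namely Crebbp, Ncoa2, Kdm2a, Kdm3a, Kdm4b, Kdm5a, Ino80, Mbd2 and Mta1 (adjusted p from 0.0632 to 0.156), and without Tcf1 KO replicate 2 all of these but Ncoa2 and Kdm2a ended (0.0639 to 0.156). Ncoa2, Kdm5a, Ino80 and Mta1 ended without either WT library (0.0528 to 0.108) or without DKO replicate 1 (0.0662 to 0.0829), and Ncoa2, Kdm5a and Ino80 without DKO replicate 2 (0.0581 to 0.117). Without DKO replicate 2, Ep300 (0.36, adjusted p = 0.014) and Chd2 (0.23, adjusted p = 0.0478) passed as higher and Chd3 (-0.57, adjusted p = 0.0179) as lower, and without DKO replicate 1 Ash1l passed as lower (-0.28, adjusted p = 0.0352). When no filter on low values was used, the calls of Crebbp, Ncoa2, Kdm3a, Kdm4b, Kdm5a, Chd7, Mbd2 and Mta1 ended (0.0504 to 0.167) and Chd4 passed as lower (-0.12, adjusted p = 0.0241).

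Other genes of the same enzyme classes and complexes were read from a list of 127 symbols, of which 122 were in the table and 113 were tested. Histone deacetylase, Polycomb, DNA methyltransferase and Arid genes were left out of this list. In DKO against WT, 39 of the 113 (34.5%) were higher and 25 (22.1%) lower, against 21.7% and 27.8% of all tested genes. By class, other demethylases and related oxygenases had 7 higher and none lower of 12, other acetyltransferase complex genes 12 and 6 of 36, and other methyltransferase complex genes 6 and 6 of 16. Other bromodomain genes had 4 higher and 4 lower of 13, other remodelling genes 6 and 6 of 21, and other corepressor genes 4 and 3 of 15. The largest rises were in Bcl7a, a BAF complex subunit, at 30.1 and 26.9 FPKM in DKO, 16.4 and 16.8 FPKM in Tcf1 KO and 14.7 and 13.9 FPKM in WT (0.95 ± 0.07, adjusted p = 0.000346), in the oxygenase Mina (0.92 ± 0.12, adjusted p = 0.00202) and in Brpf3, a scaffold of acetyltransferase complexes (0.85 ± 0.06, adjusted p = 0.000323). The largest falls were in Hells, a remodelling ATPase of dividing cells, at 1.75 and 1.97 FPKM in DKO, 11 and 8.37 FPKM in Tcf1 KO and 14.6 and 17.4 FPKM in WT (-2.57 ± 0.15, adjusted p = 0.000181), in Bcl7c (-1.14 ± 0.17) and in Ercc6l, a mitotic helicase (-1.08 ± 0.11).

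Calls over all tested genes differed with transcript length, and cell cycle genes differed between the genotypes. The 47 genes have long transcripts, with a median of 6354 bases against 2745 over the tested genes, and 35 of them lie in the longest of 4 equal groups of the tested genes. In that group 28.8% of all tested genes were higher and 23.8% lower in DKO, whereas in the shortest group 14.3% were higher and 33.0% lower; the median log2 change was 0.04 and -0.11 in these groups. The 35 members of the longest group had 16 rises, 3 falls and a median of 0.12. Summed FPKM of 16 cell cycle genes were 167 to 171 in DKO, 358 to 451 in Tcf1 KO and 634 to 640 in WT, and all 16 fell in DKO against WT. The part of transcript length and of cell division in the changes of the 47 genes was not tested.

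**Figure D5:**
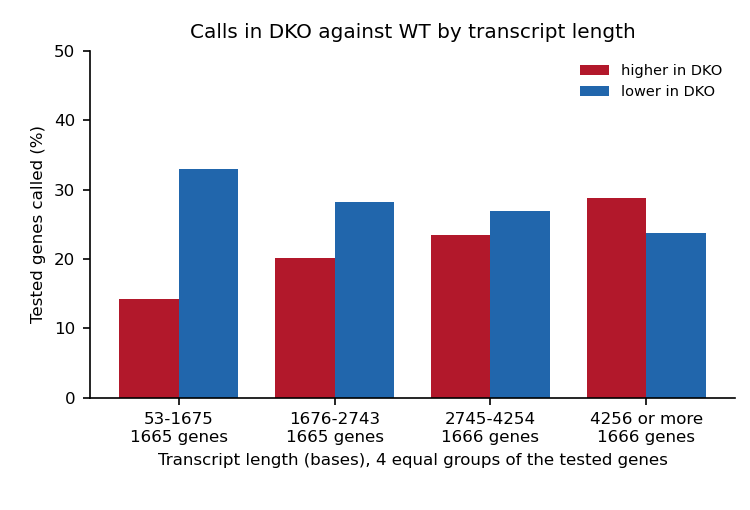
Share of tested genes called higher (red) and lower (blue) in DKO against WT at adjusted p 0.05, for 4 equal groups by transcript length (bases, from GENCODE transcripts matched by RefSeq accession). The share of genes called higher is 14.3% in the shortest and 28.8% in the longest group, where 35 of the 47 chromatin genes lie.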

How the data were processed

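The deposited file lists FPKM with 1 column for each library. The submitters' processing notes name RSEM 1.2.21, FastQC and build mm9; aligner, annotation and filters were not found in the sources. RSEM estimates how reads that match several genes divide among them, so values of close relatives are uncertain. Genes reaching 1 FPKM in 2 or more libraries were tested, with a pseudocount of 1, by limma 3.58.1 in R 4.3.3 (variance trend, no term besides genotype, 3 residual degrees of freedom); the script was checked on simulated data. The steps between low values of short genes fitted best at about 49500000 to 60750000 fragments per library (relative depth 0.815 to 1). There 65.4% to 72.9% of the values fell at most 0.25 from a whole number of fragments. Evenly spread values would also often fall that near, and each depth was the trial value with the highest share. The fit also assumed a fragment length. These depths are therefore rough guesses, and no count test was run.

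The members and lists were chosen with earlier results of these data known. Values are given by library for members that passed in Tcf1 KO against WT or DKO against Tcf1 KO, for those that passed in DKO against WT with a log2 change of at least 0.5 in size, and for the most abundant gene of a class without one. Other members that passed are named with their change only, and of the other chromatin genes the 3 largest rises and falls. Library values of Ncoa1, Ep300, Ash1l, Chd3, Chd4, Chd8, Ncor1 and Kdm6a were added after their values were seen. Alternatives were other pseudocounts, filters and scalings, the replicate number as a block, no variance trend, fits to 2 genotypes and each library left out. 1 of the T cell markers is not reported here.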

Additional observations from a re-analysis of the deposited data

How the results depend on the processing

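No member that passed in the fit to all 6 libraries changed direction in that comparison under any alternative that was run. Ash1l, which did not pass there, differed by 0.25 without DKO replicate 2 and by -0.15 without DKO replicate 1 in DKO against WT. A shorter promoter window of 250 bases also held 0 matches to the 2 motif forms searched among the 31 members. Without the filter on low values, when all 16383 genes were tested, 6 members were higher and 2 lower in DKO against Tcf1 KO, and in DKO against WT 13 and 4. With genes under 5 FPKM left out, 1 member, Ncoa3, was higher in Tcf1 KO against WT. With 1 library left out, the members counted in DKO against WT were 10 to 17 higher and 4 to 7 lower, and in DKO against Tcf1 KO 4 to 10 higher and 2 to 5 lower. Of the other chromatin genes 21 to 34 were higher and 13 to 23 lower in DKO against WT. These fits have fewer libraries, and the cause of each change was not tested. Quantile scaling added Ncoa1 (0.23, limma adjusted p = 0.0265) to the calls in DKO against WT, and median scaling ended that of Kat2a (-0.15, adjusted p = 0.0745). In fits to the 2 genotypes compared, Brd1 and Kdm4c ended in DKO against WT (adjusted p = 0.0524 and 0.0543). Ncoa2, Kdm5a, Ino80 and Mta1 ended in such fits of DKO against Tcf1 KO (0.052 to 0.107). In DKO against Tcf1 KO, median scaling added Kdm1a, Kdm2b, Chd6 and Mta2, quantile scaling added Chd6 and Mta2, and without a variance trend Ino80 and Mta1 ended (adjusted p = 0.0655 and 0.0591).

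The genotypes share replicate numbers, and deviations of libraries with the same number correlated at 0.0454 (Tcf1 KO and WT), 0.1545 (DKO and WT) and 0.1469 (DKO and Tcf1 KO), so the numbers were not taken to pair the libraries. In Cd4, replicate 1 was nevertheless the higher in every genotype, and the reason was not tested. With the replicate block, 18 members were higher and 6 lower in DKO against WT, with Kdm5b added (adjusted p = 0.0447), 0 passed in Tcf1 KO against WT, and 11 were higher and 4 lower in DKO against Tcf1 KO, where Ino80 ended (adjusted p = 0.052) and Mta2 was added (adjusted p = 0.0399). The FPKM hold no counts, so no counting interval can be set beside the differences of the least abundant members.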
